A study of Mus musculus with 8 samples.

Results

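The collagen chain genes are the genes whose products assemble into the collagens of the extracellular matrix. They were taken as every gene whose symbol has the form Col, a number, the letter a and a number, and whose probe set on the array is annotated to that symbol alone. The rule found 42 genes with 82 probe sets, among 18193 genes with a probe set of 1 symbol. Where a gene had several, its brightest probe set over all arrays stands for it. RNA came from heart ventricles of 8 male mice on the inbred FVB background. They were 8 to 12 weeks old and had carried a band around the ascending aorta for 1 week, which puts the left ventricle under pressure load. In 4 of these mice a CHF1/Hey2 transgene was expressed in heart muscle from the mlc2v promoter, which is active in ventricular myocytes, and 4 were wild type. All hearts were banded, so the response to banding has no comparison here. There were 8 Affymetrix Mouse Genome 430 2.0 arrays for the 8 mice, and values are log2 expression as deposited.

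Collagens are trimers of chains that wind around each other through long glycine-rich repeats. Fibrillar collagens form the tensile fibres of the heart's interstitium and are made mainly by fibroblasts. Basement membrane collagens form sheets around myocytes and vessels, and short-chain network, fibril-associated (FACIT) and beaded filament collagens organize or connect these structures. Pressure load is known to raise collagen deposition in the ventricle.

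The arrays were not equally alike. Over the 9607 genes tested, the highest r between transgenic replicate 2 and any other array was 0.840, and 37.2% of genes were there more than 2-fold away from the remaining arrays' median. For transgenic replicate 3 this share was 9.27%, and for the other 6 arrays it was between 0.749% and 1.55%. That r runs over genes and is a description. Hey2 read between 5.70 and 6.26 in arrays labelled transgenic and between 5.68 and 6.76 in wild type, and its difference was -0.11 (exact two-sided permutation p = 0.771), so it does not check the labels. It is unknown whether this probe set detects transgene RNA. The 10 ventricular myocyte markers read between 13.22 and 16.11 in every array, while 0 of 6 lymphocyte markers exceeded a log2 value of 5 in 4 arrays. The difference between the 3′ and 5′ control probe sets of beta-actin (Actb) was 0.62 in transgenic replicate 2 and 1.02 in replicate 3, where the remaining 6 arrays spanned 0.78 to 1.21. For pyruvate carboxylase (Pcx) replicate 2 was the highest array at 4.71, with the others between 4.22 and 4.48, and for Gapdh all lay between -0.28 and -0.11.

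Of the 42 collagen genes, 22 had a log2 value above 5 in at least 4 of the 8 arrays and entered the test, and 20 did not. Collagen transcripts were lower in the arrays labelled transgenic, but the difference lay mostly in 1 array and no gene passed the test. All 22 genes tested had a lower mean in arrays labelled transgenic, against 43.0% of the 9607 genes tested, and their median difference was -0.57, against 0.06 over all genes. With limma and Benjamini-Hochberg adjustment, 0 of the 22 were called lower or higher (0.0% of all genes in either direction), with adjusted p between 0.813 and 0.963. Of the 22, 0 reached an unadjusted p under 0.05 in limma, which 1.59% of all genes did in either direction and 0.375% as lower, and the smallest was 0.0572. The 95% confidence interval of every difference held 0. The groups overlapped for every one of the 22, whereas they were apart for 0.479% of all genes with transgenic lower and for 2.0% with transgenic higher. The smallest exact permutation p was 0.0857, where 4 against 4 arrays allow 0.0286. The 22 genes were read from the same 8 arrays, so their common direction is not that of independent measurements.

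Transgenic replicate 3 held the lowest value of the 8 arrays for 21 of the 22 genes, against 23.5% of all genes, and Col4a5 was the exception. It lay over 2-fold below the wild-type mean for 21 (6.26% of all genes), with Col27a1 as the exception, and over 4-fold below it for 14 (1.3%). Its median deviation over the 22 genes was -2.19, while transgenic replicates 1, 2 and 4 had -0.13, 0.28 and -0.23 and the wild-type arrays lay between -0.21 and 0.31. Without transgenic replicate 3, 14 of the 22 genes had a lower mean (39.4% of all genes), and the median difference was -0.07. Without transgenic replicates 2 and 3, 18 of 22 were lower (34.7% of all genes), with a median of -0.21.

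**Figure D1:**
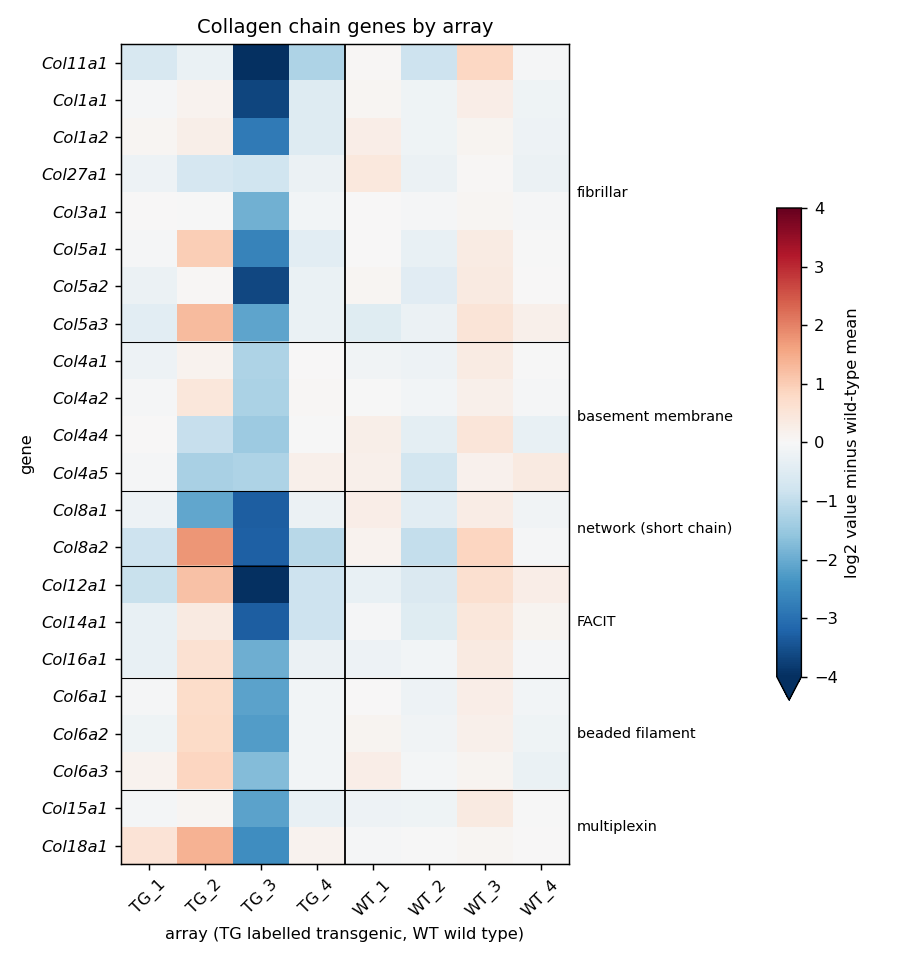
Deviation of each log2 value from the wild-type mean of the gene (colour, log2 units; values under -4 share the darkest blue) for the 22 collagen genes tested (rows, by class) in the 8 arrays (columns). The column of transgenic replicate 3 is blue throughout, from -0.80 for Col27a1 to -6.75 for Col11a1, and the basement membrane rows are the palest class in it.

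RefSeq promoters (GRCm38.p6), of which the 250 bases before a start were searched, were at hand for 33 of the 42 members, 18 of them among the genes tested. The bases before the start are shown for the fibrillar genes Col1a2 and Col3a1, chains of different collagens, and for the network gene Col8a1. All 3 are among the 21 of 22 genes tested that lay over 2-fold below the wild-type mean in transgenic replicate 3. Capitals mark matches on either strand to CCAAT, the GC box GGGCGG, which reads CCGCCC when it lies on the reverse strand, the TATA element TATAAA and the forms CACGTG and CACGCG, which Hey-family repressors are known to bind.
Col1a2, chr6:4505368-4505617, plus strand: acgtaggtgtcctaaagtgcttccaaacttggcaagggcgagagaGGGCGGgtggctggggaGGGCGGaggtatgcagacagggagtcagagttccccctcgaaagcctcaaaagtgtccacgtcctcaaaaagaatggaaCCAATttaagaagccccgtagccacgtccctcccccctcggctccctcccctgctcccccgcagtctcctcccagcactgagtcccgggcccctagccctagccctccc
Col3a1, chr1:45311288-45311537, plus strand: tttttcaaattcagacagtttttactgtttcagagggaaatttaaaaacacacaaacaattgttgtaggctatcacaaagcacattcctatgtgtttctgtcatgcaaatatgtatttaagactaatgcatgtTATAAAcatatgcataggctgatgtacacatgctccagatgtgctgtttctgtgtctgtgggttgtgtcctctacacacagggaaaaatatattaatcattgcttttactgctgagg
Col8a1, chr16:57754738-57754987, minus strand: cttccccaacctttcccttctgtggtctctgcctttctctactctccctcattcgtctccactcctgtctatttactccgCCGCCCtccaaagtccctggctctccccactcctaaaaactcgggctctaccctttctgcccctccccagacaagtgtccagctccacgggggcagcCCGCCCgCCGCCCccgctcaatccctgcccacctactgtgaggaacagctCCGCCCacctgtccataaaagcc
The 3 promoters differ in letters: Col1a2 has a CCAAT box and 2 GC boxes, Col8a1 has 4 GC boxes and Col3a1 has TATAAA alone. The Col3a1 match lies 117 to 112 bases before the start, and whether it works as a TATA element was not tested. Over the 20 promoter windows of the genes tested, CCAAT was in 8 (33.8% of 32851 promoters), GGGCGG in 13 (32.7%), TATAAA in 1 (12.4%), CACGTG in 0 (6.02%) and CACGCG in 1, that of Col5a3 (7.62%). A match is a description of letters in this window and no match says nothing about binding elsewhere.

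The fibrillar class had 11 members, of which 8 were tested. Their median difference was -0.65 (from -2.23 to -0.38), and the median in transgenic replicate 3 was -2.76. Values are given in the order of replicates 1 to 4. Col1a1, the major chain of type I collagen, read 14.06, 14.25, 10.44 and 13.59 in the transgenic arrays and 14.18, 13.94, 14.35 and 13.94 in the wild-type arrays. Transgenic replicate 3 was 12.7-fold below the wild-type mean, replicate 4 also lay below every wild-type array, and replicates 1 and 2 lay within the wild-type range. Means of 13.09 ± 1.79 (SD, n = 4) for transgenic and 14.10 ± 0.20 (SD, n = 4) for wild type gave a difference of -1.02 (SE 0.763, 95% confidence interval -2.76 to 0.72; limma adjusted p = 0.813). Col1a2, the partner chain of type I collagen, read 13.37, 13.50, 10.43 and 12.75 against 13.53, 13.11, 13.40 and 13.07, with a difference of -0.76 (SE 0.617). Transgenic replicates 3 and 4 lay below every wild-type array, and replicates 1 and 2 lay within their range. Without transgenic replicate 3 the differences of Col1a1 and Col1a2 were -0.13 and -0.07.

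Col3a1, the chain of type III collagen, which forms thin fibres with type I, read 14.88, 14.86, 12.95 and 14.77 in transgenic and 14.89, 14.82, 14.95 and 14.81 in wild-type arrays. Apart from transgenic replicate 3 the 7 values of this probe set lay between 14.77 and 14.95, and the wild-type SD was 0.06. The mean difference was -0.50 (SE 0.417), or -0.03 without transgenic replicate 3. A second, dimmer probe set of Col3a1 read 11.11, 9.92, 8.04 and 10.86 against 11.24, 10.92, 11.64 and 11.35, a difference of -1.31. There transgenic replicates 2, 3 and 4 lay below every wild-type array. Col5a2, a chain of type V collagen, which starts fibril formation, read 12.87, 13.16, 9.45 and 12.83 against 13.17, 12.66, 13.46 and 13.10. Its difference was -1.02 (SE 0.759), or -0.14 without transgenic replicate 3, which was 12.5-fold below the wild-type mean. The other 3 transgenic arrays lay within the wild-type range for Col5a2.

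The other 4 fibrillar genes tested, Col5a1, Col5a3, Col11a1 and Col27a1, differed by -0.54, -0.38, -2.23 and -0.47. Col5a1 and Col5a3, further type V chains, deviated by 0.97 and 1.27 in transgenic replicate 2, and by -2.67 and -2.11 in replicate 3. Without replicate 3 their differences were 0.17 and 0.20. Col11a1 and Col27a1 are singled out because they held the widest and the narrowest deviations in transgenic replicate 3, a choice made after their values were seen. Col11a1, a chain of the type XI collagen of cartilage and thin fibrils, read 8.85, 9.22, 2.75 and 8.25 against 9.54, 8.68, 10.33 and 9.45. Its value of 2.75 is within the range of the collagen genes below the filter, so the size of that deviation is hard to read. It differed by -0.73 without transgenic replicate 3, and without replicates 2 and 3 by -0.95 (SE 0.417, limma adjusted p = 1.00). Col27a1, a fibrillar chain known from cartilage, read 7.90, 7.41, 7.29 and 7.86 against 8.50, 7.86, 8.14 and 7.87, a difference of -0.47 (SE 0.224, limma adjusted p = 0.813; exact permutation p = 0.143). Both groups of Col27a1 were similarly tight, with SDs of 0.31 and 0.30, and it was the only one of the 22 whose difference exceeded its SD in the transgenic arrays. Its difference stayed negative when any single array was left out, between -0.57 and -0.34, as did that of 14 of the 22 genes, itself included. The second probe set of Col27a1 was less tight: it deviated by -2.03 in transgenic replicate 2 and -1.15 in replicate 3, and differed by -0.86. Col2a1, Col11a2 and Col24a1 were not tested, and Col2a1, the main collagen of cartilage, read at most 2.88.

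**Figure D2:**
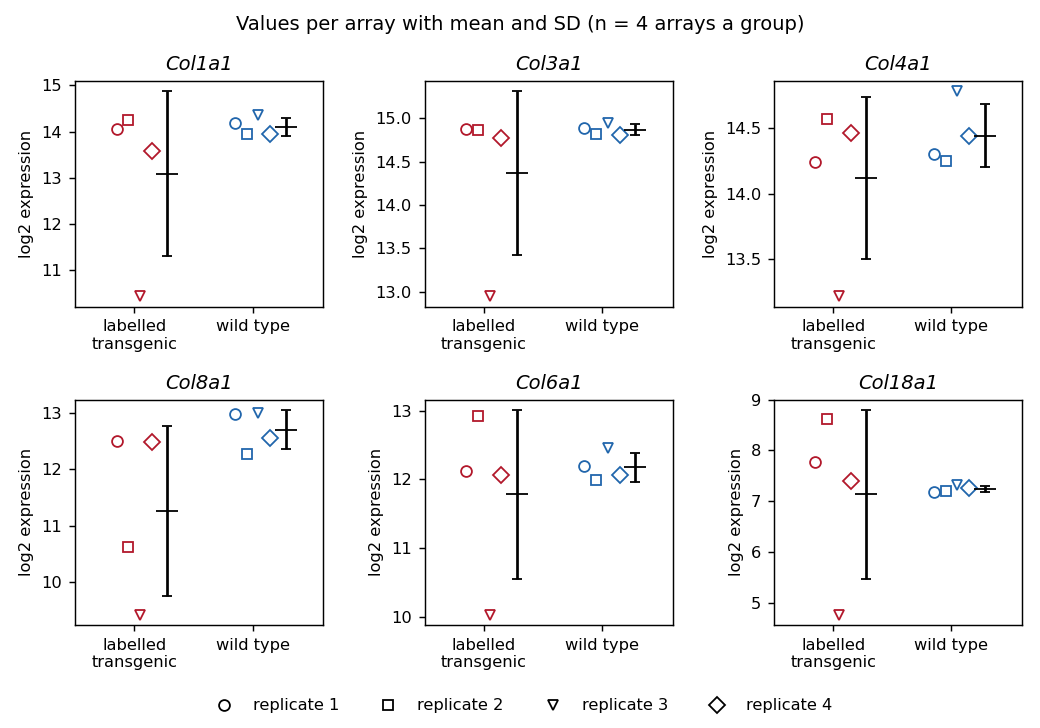
Log2 expression of 6 collagen genes in single arrays (symbols by replicate number) with the group mean and SD in black (n = 4 arrays a group); axes differ between panels and do not start at 0. In every panel the lowest point is transgenic replicate 3, for example 10.44 for Col1a1 and 4.76 for Col18a1.

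Basement membrane chains showed smaller deviations in transgenic replicate 3 than most fibrillar ones, between -1.44 and -1.22, with a class median of -1.25. This contrast between classes within 1 array was not tested. Col4a1, which with Col4a2 forms the type IV collagen of nearly all basement membranes, read 14.24, 14.57, 13.22 and 14.46 in transgenic and 14.30, 14.25, 14.78 and 14.44 in wild-type arrays. Col4a2 read 13.21, 13.73, 12.00 and 13.33 against 13.24, 13.14, 13.45 and 13.22. Their differences were -0.32 (SE 0.307) and -0.20 (SE 0.343), and without transgenic replicate 3 they were -0.02 and 0.16. Both genes lie head to head in the genome. Their starts are 21 bases apart in RefSeq, and the annotated transcripts overlap there. The deviations of Col4a1 and Col4a2 differed by at most 0.33 in any array and by 0.04 in transgenic replicate 3.

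Col4a4 and Col4a5 encode type IV chains best known from the kidney filter and other specialised membranes. Col4a4 read 7.34, 6.42, 5.89 and 7.30 against 7.55, 6.94, 7.81 and 7.02, a difference of -0.60 (SE 0.369). Col4a5 read 10.73, 9.49, 9.56 and 11.00 against 10.99, 10.06, 10.97 and 11.15, also a difference of -0.60 (SE 0.409). In both genes transgenic replicates 2 and 3 were the low arrays, and replicates 1 and 4 lay within the wild-type range. Without replicate 3 alone the differences were -0.31 and -0.38, and without both arrays -0.01 and 0.07. Of the class, Col4a3 and Col4a6 were not tested, with values of at most 3.37 and 4.70.

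Network chains of the short-chain kind had the widest median difference of the classes, -1.16, over 2 genes tested of 3. Col8a1, a chain of the type VIII collagen of vessel walls and remodelling matrix, read 12.51, 10.62, 9.42 and 12.48 against 12.98, 12.28, 13.01 and 12.56. Transgenic replicates 2 and 3 lay below all wild-type arrays, and replicates 1 and 4 lay between them. Means were 11.26 ± 1.51 and 12.71 ± 0.35 (SD, n = 4 each), and the difference of -1.45 had the smallest p of the 22 genes (SE 0.662, 95% confidence interval -2.96 to 0.06; unadjusted limma p = 0.0572, adjusted p = 0.813; exact permutation p = 0.114). Without transgenic replicate 3 it was -0.84, and without replicates 2 and 3 it was -0.22. Col8a2, the partner chain, read 4.67, 7.25, 2.22 and 4.40 against 5.65, 4.55, 6.35 and 5.46. It exceeded the filter value in just 4 arrays, wild-type replicates 1, 3 and 4 and transgenic replicate 2. Col8a2 thus entered the test mainly through the group in which it was higher, which favours a lower transgenic mean. Its highest value was in the same transgenic replicate 2 in which Col8a1 was low, and its deviation there was 1.75 against -2.09. Its 2.22 in transgenic replicate 3 is also within the range of genes below the filter. The difference was -0.87 (SE 0.925), or -0.06 without transgenic replicate 3. Col10a1, the third gene of this class and a marker of hypertrophic cartilage, read at most 2.24.

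FACIT collagens sit on the surface of fibrils, and 3 of the 9 genes were tested, with a median difference of -1.02. Col14a1 read 10.41, 11.05, 7.39 and 9.87 against 10.64, 10.22, 11.15 and 10.81. Col12a1, induced in tissues under mechanical load, read 7.33, 9.39, 3.36 and 7.37 against 7.90, 7.61, 8.86 and 8.46. In both genes transgenic replicates 3 and 4 lay below all wild-type arrays, and for Col12a1 replicate 1 did too, while replicate 2 was above all wild-type arrays for Col12a1. The differences were -1.02 (SE 0.702) and -1.34 (SE 1.09), the second resting on a value of 3.36 near the level of genes below the filter. They were -0.26 for Col14a1 and -0.18 for Col12a1 without transgenic replicate 3 alone. Without transgenic replicates 2 and 3, Col12a1 differed by -0.86 (SE 0.330; limma adjusted p = 1.00, unadjusted under 0.05) and Col14a1 by -0.56 (SE 0.271). The second probe set of Col12a1 differed by -0.26 over all 8 arrays. Its deviations in the transgenic arrays were -0.39, 1.05, -1.36 and -0.35, against -0.88, 1.18, -4.84 and -0.84 for the kept probe set. Col16a1 read 8.67, 9.56, 7.02 and 8.74 against 8.75, 8.84, 9.33 and 8.91, a difference of -0.46 (SE 0.478) that was 0.03 without transgenic replicate 3. The 6 genes not tested were Col9a1, Col9a2, Col9a3, Col19a1, Col20a1 and Col22a1, and of these only Col22a1 exceeded 5, at 5.51 in transgenic replicate 2.

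The 3 chains of type VI collagen, whose beaded filaments tie cells to the interstitial matrix, followed each other from array to array. Col6a1 read 12.12, 12.92, 10.03 and 12.06 against 12.20, 11.99, 12.46 and 12.06. Col6a2 read 11.85, 12.77, 9.79 and 11.91 against 12.11, 11.87, 12.23 and 11.85. Col6a3 read 11.33, 12.06, 9.47 and 11.07 against 11.45, 11.10, 11.30 and 10.92. In each of them transgenic replicate 2 was the highest and replicate 3 the lowest of the 8 arrays. Their differences of -0.40 (SE 0.538), -0.43 (SE 0.551) and -0.21 (SE 0.485) turned to 0.19, 0.16 and 0.30 without transgenic replicate 3. The deviations of Col6a1 and Col6a2 differed by at most 0.11 in any array. Col6a4 and Col6a5 were not tested, with values of at most 4.26.

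Col15a1 and Col18a1 encode the multiplexins, proteoglycan collagens of the basement membrane zone, and the end of the Col18a1 product is released as endostatin. Col15a1 read 10.84, 11.02, 8.81 and 10.65 against 10.74, 10.78, 11.30 and 10.92, a difference of -0.61 (SE 0.461). Col18a1 read 7.77, 8.62, 4.76 and 7.39 against 7.17, 7.20, 7.31 and 7.25, with a difference of -0.10 (SE 0.709). Its wild-type SD was 0.06, and transgenic replicates 1, 2 and 4 all lay above every wild-type array while replicate 3 lay far below. Without transgenic replicate 3, Col18a1 differed by 0.69 (SE 0.287; limma adjusted p = 0.603, unadjusted under 0.05), and without replicates 2 and 3 by 0.34 (SE 0.139; limma adjusted p = 1.00, unadjusted under 0.05). Its second probe set read 7.71, 8.58, 4.23 and 7.13 against 7.29, 7.46, 6.97 and 7.04, so there transgenic replicate 4 lay within the wild-type range. Col15a1 differed by -0.10 and -0.19 in the same fits.

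**Figure D3:**
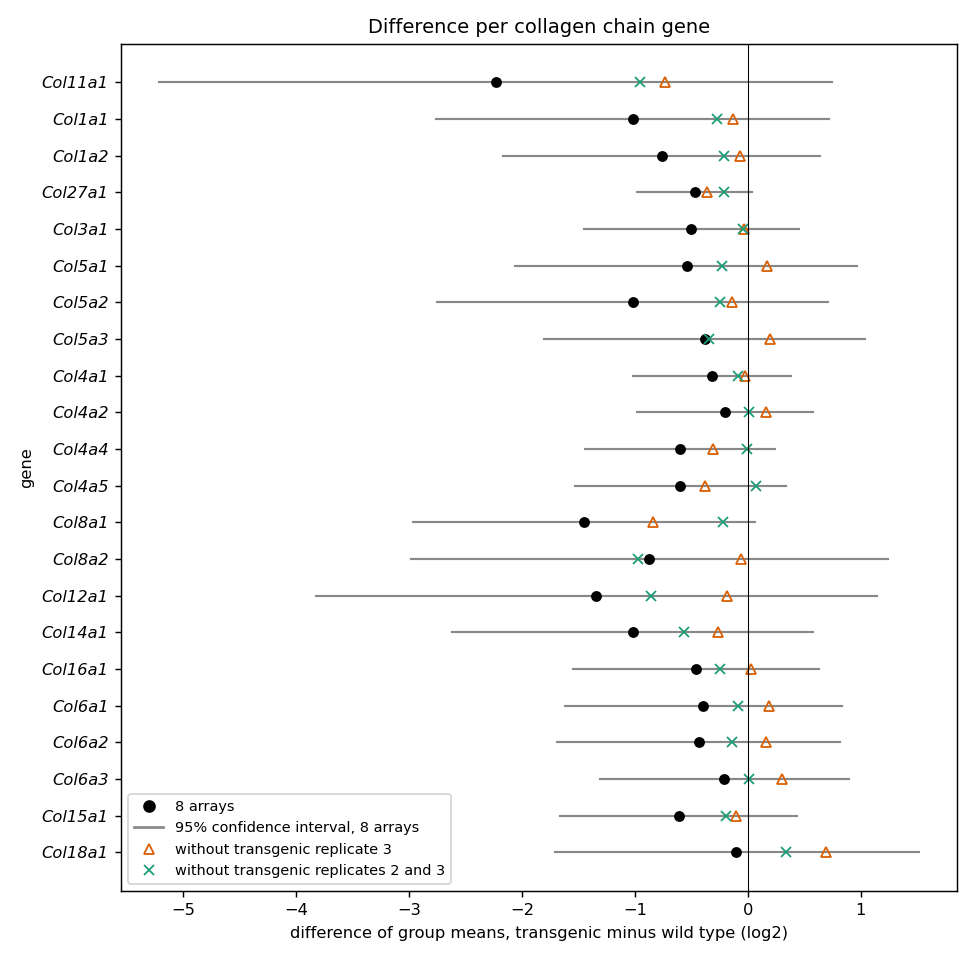
Difference of group means (transgenic minus wild type, log2) of each collagen gene tested over 8 arrays (points) with its 95% confidence interval (lines), and the difference without transgenic replicate 3 (triangles) or without replicates 2 and 3 (crosses). Every interval holds 0, and without transgenic replicate 3 the points move to between -0.84 and 0.69.

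The 4 transmembrane collagens (Col13a1, Col17a1, Col23a1 and Col25a1), Col7a1 of anchoring fibrils and Col26a1 did not pass the filter. Over the 20 collagen genes below it, values lay between 2.07 and 5.51, differences between -0.46 and 0.11, and 19 had no array above 5. Col7a1 held the lowest of these differences, at 2.50, 2.51, 2.38 and 2.80 against 3.01, 2.78, 3.22 and 3.01. With no filter its limma adjusted p was 0.839 and its unadjusted p under 0.05, and all 8 values were at most 3.22.

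Wild-type arrays differed among themselves over many members too. Wild-type replicate 3 was the highest wild-type array for 18 of the 22 genes (24.7% of all genes), and wild-type replicate 2 was the lowest for 14 (31.9%) and lay below the mean for all 22. The sizes were small beside transgenic replicate 3, with median deviations of 0.31 and -0.21. Among the mice labelled transgenic, replicates 1 and 4 together lay below the wild-type mean for 18 of 22 genes (34.7% of all genes), with a median of -0.21. Replicate 1 alone was below for 17 (42.9%) and replicate 4 for 18 (34.7%), and both lay within the wild-type range for 9 (45.4%). The SD was larger in arrays labelled transgenic than in wild type for all 22 genes, as for 89.1% of all genes, and had a median of 1.33 against 0.26. Transgenic replicate 2 was the highest array for 10 of 22 genes, a share close to the 46.8% of all genes, and the lowest for 1 (31.0%). It lay above the wild-type mean for 16 (60.5%), over 2-fold above it for 4 (17.8%) and over 2-fold below it for 2 (20.5%).

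Several collagen genes have more than 1 probe set, and these did not always read alike. Transgenic replicate 3 lay below the wild-type mean in all 40 collagen probe sets that passed the filter and over 2-fold below it in 38. In transgenic replicate 2 the 3 probe sets of Col8a1 deviated by -2.09, 0.10 and -3.06, which gave differences of -1.45, -0.92 and -2.06. Probe sets of Col5a2 deviated there by 0.06 and -1.72, those of Col3a1 by -0.01 and -1.37, and those of Col11a1 by -0.28 and -2.62. With Col27a1, these were the 5 of 15 genes with several probe sets whose probe sets lay over 1 log2 unit apart in transgenic replicate 2, as for 1251 of 4049 genes of the whole array. In transgenic replicate 3 it was 4 of 15 genes, against 156 of 4049, with Col12a1 and Col1a2 widest at 3.48 and 3.34. The third probe set of Col1a2 lay between 4.91 and 5.65 in all arrays. In the other 6 arrays it was 0 of the 15 genes. Col8a1 in transgenic replicate 2 was thus low by some of its probe sets only, while in replicate 3 all of them were low, at -3.29, -3.49 and -4.31.

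**Figure D4:**
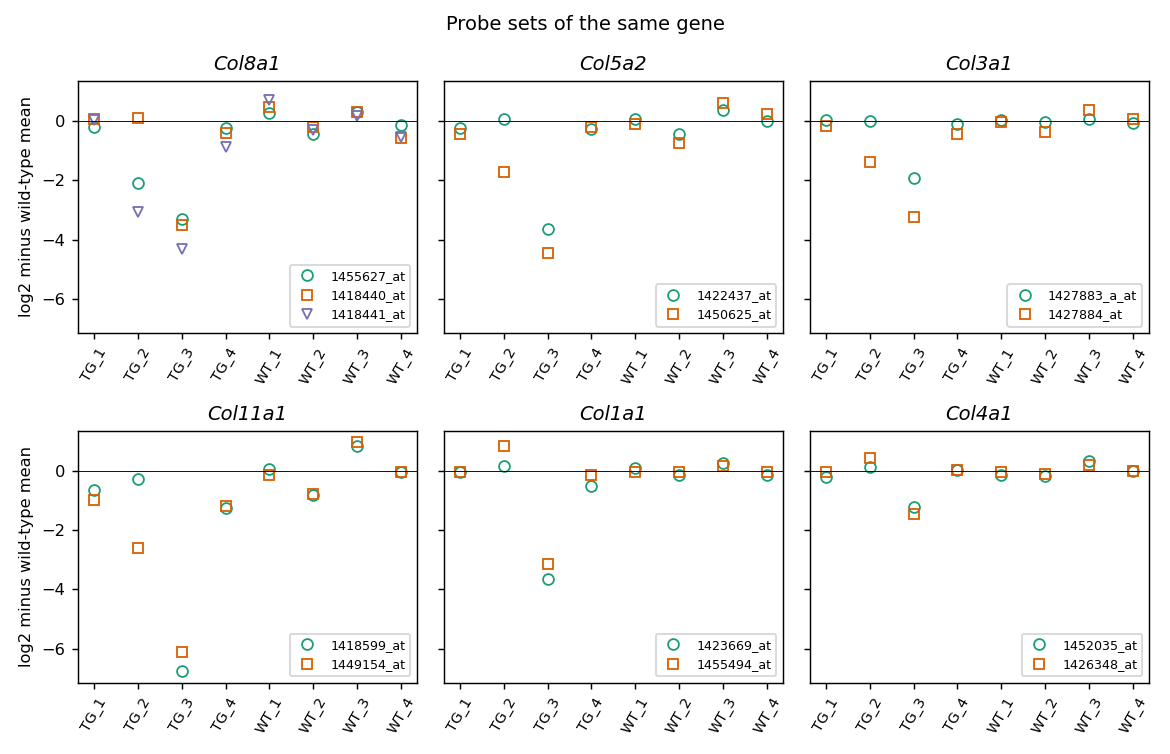
Deviation from the wild-type mean (log2) of every probe set that passed the filter (symbols) for 6 collagen genes in the 8 arrays. Probe sets of a gene lie together in most arrays, spread in transgenic replicate 2 for Col8a1 from 0.10 to -3.06, and are all low in replicate 3.

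Partner chains of a heterotrimer can be set against each other within an array, since each is taken from its own wild-type mean. Col1a1 minus Col1a2 was -0.82 in transgenic replicate 3 and within 0.17 of 0 in the other 7 arrays. That gap depended on the probe sets: with the second probe set of Col1a2 it was -0.02, with the second of Col1a1 it was -0.31, and with both it was 0.49. Col5a1 minus Col5a2 was 0.97 in transgenic replicate 3 and 0.90 in replicate 2, and within 0.19 in the other 6. That gap also depended on the probe set: the second of Col5a2 deviated by -4.44 in transgenic replicate 3 and -1.72 in replicate 2. The kept one deviated by -3.64 and 0.06. In transgenic replicate 3 Col4a1 minus Col4a2 was 0.04 and Col6a1 minus Col6a2 was 0.08. Col6a1 minus Col6a3 was -0.42 there, and Col4a4 minus Col4a5 was -0.21. The last pair was widest in wild-type replicate 4, at -0.66.

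Genes of the collagen pathway were read from lists of enzymes, receptors and partners, with the 3 brightest genes named. With limma and adjustment over all genes, 0 members of any list were called (0.0% of all genes). Counts of lower genes in the lists stand beside 43.0% of all genes tested with a lower mean. Among genes that fold and hydroxylate procollagen, 18 of 20 were tested, 11 lower and 7 higher, with a median of -0.11 and 0 at an unadjusted p under 0.05. Serpinh1, the collagen chaperone, differed by -0.18 and deviated by -0.30 in transgenic replicate 3, where Col1a1 deviated by -3.66. P4hb, a subunit of prolyl hydroxylase, and Ppib, a proline isomerase, deviated by -0.92 and -1.10 there. The list's median in that array was -0.62.

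Of 13 cleavage and cross-linking genes 6 were tested and 5 of them lower, with a median of -0.28 and -1.69 in transgenic replicate 3. Lox, which cross-links collagen, differed by -1.95 (SE 0.812; limma adjusted p = 0.813, unadjusted under 0.05) and was low in transgenic replicates 2 and 3, at -2.30 and -4.44. Without replicate 3 it differed by -1.12, and without both by -0.53. Pcolce, which enhances removal of the procollagen tail, differed by -0.26 and Loxl1, a relative of Lox, by -0.30, and without transgenic replicate 3 by 0.18 and 0.20. Fibril-associated proteoglycans and nucleators had 11 of 13 lower, with a median of -0.51 and -1.86 in transgenic replicate 3. Aspn, a small leucine-rich proteoglycan, differed by -1.40 (SE 0.597; limma adjusted p = 0.813, unadjusted under 0.05). Postn, periostin of activated fibroblasts, differed by -1.35 (SE 0.675), Sparc, a collagen-binding matricellular protein, by -0.51 and Dcn, decorin, by -0.16. Without transgenic replicate 3 the differences of Aspn, Postn, Sparc and Dcn were -1.09, -0.63, -0.05 and -0.06, and without replicates 2 and 3 they were -0.31, -0.18, -0.08 and 0.10. Collagen receptors had 4 of 5 lower (median -0.47). Itgb1, the common beta subunit of collagen-binding integrins, differed by -0.47, Mrc2, which takes up collagen, by -0.29 and Ddr1, a collagen-activated kinase, by 0.10, and without transgenic replicate 3 by -0.18, 0.23 and 0.31 in that order. Basement membrane partners had 8 of 11 lower with a median of -0.07 and -0.88 in transgenic replicate 3, and Nid1, nidogen, which bridges laminin and type IV collagen, differed by -0.42 (SE 0.206), while the laminin chains Lamc1 and Lamb2 differed by -0.12 and 0.19. These 3 were -0.27, 0.10 and 0.34 without transgenic replicate 3. Collagen-degrading proteases and inhibitors had 6 of 7 lower. Mmp2, a gelatinase, deviated by -2.04 in transgenic replicate 3 and by 0.72 in replicate 2. The protease inhibitors Timp2 and Timp3 deviated by -0.98 and 0.15 in replicate 3. Mmp2, Timp2 and Timp3 differed by -0.30, -0.12 and -0.53, and without transgenic replicate 3 by 0.27, 0.16 and -0.76. In these 3 lists 0 members had an unadjusted p under 0.05.

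Cell type markers were read beside the collagens, since in bulk ventricle fewer cells of a type and less RNA per cell cannot be told apart. Fibroblast markers other than collagens had a median of -0.64 in transgenic replicate 3, against -2.76 for fibrillar collagens, and 3 of 10 lay over 2-fold below the wild-type mean. Those 3 were Mfap5, Loxl1 and Pcolce, at -2.30, -1.80 and -1.58. The other 7 deviated by -0.95 for Lum, -0.68 for Pdgfra, -0.60 for Tcf21, -0.45 for Dcn, -0.23 for Ddr2, -0.08 for Dpt and 0.41 for Gsn. Of the 10 markers, 5 (Dcn, Lum, Pcolce, Loxl1 and Ddr2) are also in the pathway lists. The summed linear signal of the 10 markers was 48736 in transgenic replicate 3, between 58284 and 75309 in the other 3 transgenic arrays and between 58360 and 67649 in wild type. Gsn, the brightest of the 10, weighs most in this sum. It read 14.70 in transgenic replicate 3 against 14.14 to 14.43 in wild type, so the sum understates how low the dimmer markers were there. All 10 passed the filter. Endothelial and ventricular myocyte markers had medians of 0.07 and 0.05 in that array, with 0 of 10 over 2-fold below in each. Macrophage markers had a median of -1.10 with 5 of 8 over 2-fold below, and a sum of 8176 against 12879 to 21537 in wild type and 14845 to 28489 in the other transgenic arrays. Smooth muscle and pericyte markers had a median of -0.45 with 1 of 8 over 2-fold below. Atrial myocyte markers had medians of 0.08, 0.84, 0.66 and 0.70 in the transgenic arrays and between -0.35 and 0.41 in wild type. In transgenic replicate 3 1 of these 4 markers, Nppa, the brightest of the list, deviated by -2.03. Myl7, Sln and Myl4 deviated there by 1.09, 0.86 and 0.46. The list's sum there was 13781 against 28805 to 42488 in wild type and 38181 to 43237 in the other transgenic arrays. Nppa weighs most in this sum, so the sum says little about Myl7, Sln and Myl4. Bulk values cannot tell whether Nppa RNA came from atrial or ventricular myocytes. Over all 8 arrays Myl7 differed by 0.71 (SE 0.217; limma adjusted p = 0.813, unadjusted under 0.05). The part of any of these cell types, or of the differences between arrays given at the start, in the collagen values was not tested.

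**Figure D5:**
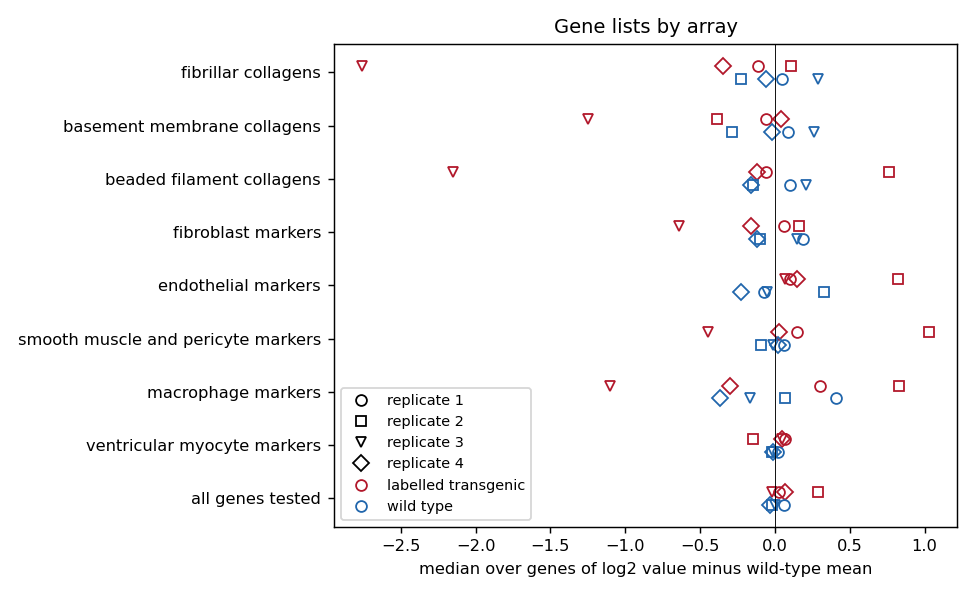
Median over the genes of each list of the deviation from the wild-type mean (log2) in single arrays (symbols by replicate number; red, labelled transgenic; blue, wild type). Transgenic replicate 3 stands at -2.76 for fibrillar collagens, -1.25 for basement membrane collagens and -0.64 for fibroblast markers, and near 0 for endothelial and myocyte markers.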

How the data were processed

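Total RNA of 8 ventricle samples was hybridised to 8 arrays, as the labels' protocols state. The deposited values are on the log2 scale and were made by the authors with GCRMA, per the submitters' processing notes, which name no version. GCRMA is a method that corrects background by base composition, so probe sets without signal share a low level. Precision is limited by having 8 arrays. Of 45101 probe sets, 34945 had 1 gene symbol in the platform annotation, and an update through Entrez identifiers changed 0 symbols. Genes were filtered at a log2 value above 5 in at least 4 of 8 arrays, 1 probe set kept per gene, and tested with limma 3.58.1 in R 4.3.3 (lmFit, eBayes, Benjamini-Hochberg at 0.05 over 9607 genes, no block). The steps were run on simulated data with independent noise of equal spread in both groups. That run cannot tell how the fit behaves with the wider transgenic spread and deviating arrays seen here. Promoter sequences and starts came from a RefSeq table (GRCm38.p6), with no other genome sequence. The series names 4 mice of each kind.

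Groups and replicate numbers came from the sample titles. Members, classes, lists and alternatives were chosen with earlier results of these data known. Values of every array are given for up to 4 tested genes of each class with the highest mean, and for members with an unadjusted p under 0.05 or without overlap; genes of the pathway lists are named at an unadjusted p under 0.05 or as the 3 with the highest mean of a list. Alternatives changed the filter, scaling, model, probe set rule and threshold, and left out arrays.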

Additional observations from a re-analysis of the deposited data

Results flagged for a closer look

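In 5 of 44 groups of 4 arrays over the 22 collagen genes tested, 1 array lay far from the other 3 by Dixon's gap criterion, where chance gives about 1 in 20 groups. The genes share arrays, so the groups are not independent. In 4 of the 5 the array was transgenic replicate 3, the lowest of its group, at 2.75 for Col11a1, 8.81 for Col15a1, 12.95 for Col3a1 and 9.45 for Col5a2. The fifth was Col4a5 in wild-type replicate 2, at 10.06, where the other wild-type arrays read between 10.97 and 11.15.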

How the results depend on the processing

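The number of arrays and the wide transgenic spread limited what could be seen: the median 95% confidence interval of the 22 genes reached 1.33 log2 units to either side. Of 417 gene differences under alternatives, 403 kept their sign, and 13 of the 22 genes stayed lower throughout. No collagen gene was called under any alternative, the threshold of 0.1 included. Leaving out 1 array gave median differences between -0.83 and -0.07, with 14 to 22 genes lower. The class medians ranged from -1.07 to -0.10 (fibrillar), -0.61 to -0.17 (basement membrane), -1.49 to -0.45 (network), -1.48 to -0.18 (FACIT), -0.77 to 0.19 (beaded filament) and -0.72 to 0.30 (multiplexin). Genes whose sign turned, all without transgenic replicate 3, ranged from -0.81 to 0.03 (Col16a1), -0.59 to 0.69 (Col18a1), -0.42 to 0.16 (Col4a2), -1.05 to 0.17 (Col5a1), -0.93 to 0.20 (Col5a3), -0.77 to 0.19 (Col6a1), -0.83 to 0.16 (Col6a2) and -0.57 to 0.30 (Col6a3). With transgenic replicates 2 and 3 both left out, the basement membrane median was 0.0, the multiplexin median 0.08, Col18a1 0.34, Col4a2 0.01, Col4a5 0.07 and Col6a3 0.01. With array weights 1 gene of the whole array was called higher, the multiplexin median was 0.05, Col18a1 0.35 and Col6a3 0.09, and 3 collagen genes had an unadjusted p under 0.05. Genes of the whole array at an unadjusted p under 0.05 numbered 153, against 1529 with array weights and between 34 and 541 with 1 array left out. Among collagen genes they numbered 0, against at most 2 with 1 array left out and 2 (Col8a1 and Col27a1) after a further quantile normalization. With no filter the FACIT median was 0.04 over all 9 genes, of which 6 lay below the filter. Filters, scalings, priors and probe set rules turned no other sign, and where no construction shows the cause it was not tested. Same-numbered arrays of both groups deviated with correlations of 0.296, -0.006, -0.334 and 0.20. Transgenic replicates 1 and 4 correlated best with the wild-type array of their own number, and replicates 2 and 3 did not. Such correlations cannot tell whether a shared number pairs mice. With that number as a replicate block, the median difference was -0.57 and 0 genes were called, with 147 genes at an unadjusted p under 0.05 in limma.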
